A study of Mus musculus with 6 samples.

Results

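The receptor chains for IL-2 and its relatives were examined in splenic CD4+YFP+ regulatory T (Treg) cells by RNA-seq. They comprised 9 genes chosen by name from the 24421 in the count matrix. These were 8 receptor chains (Il2ra, Il2rb, Il2rg, Il7r, Il15ra, Il4ra, Il21r and Il9r) and the cytokine gene Il2. Libraries came from untreated cells of female C57BL/6 mice aged 8 to 11 weeks, 3 Foxp3Cre mice (WT) and 3 Foxp3Cre miR-142fl/fl mice (KO), with 1 library from each mouse. Both groups carried Cre fused to yellow fluorescent protein under the endogenous Foxp3 promoter, and the KO mice also carried floxed miR-142 alleles. The deletion follows the onset of Foxp3 expression, so that early and late effects of miR-142 loss cannot be told apart in these animals. Of the 9 genes, 8 passed the filter on low counts and 4 of them were higher in KO cells, while 0 were lower. Among all genes tested, 11.6% were higher and 7.27% lower.

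Cytokines of this family bind receptors that share the common gamma chain, encoded by Il2rg. IL-2 is held by the alpha chain CD25 (Il2ra) and signals through the beta chain CD122 (Il2rb) and the gamma chain, while IL-15 uses the same beta and gamma chains with its own alpha chain (Il15ra). The tails of the beta and gamma chains bring in the Janus kinases Jak1 and Jak3, which activate Stat5a and Stat5b. Treg cells are known for high CD25, for little IL-2 of their own, and for depending on IL-2 made by other T cells.

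The sequences of the targeted microRNA are given first because a search of the receptor transcripts rests on them. The mature strands, taken from RefSeq (GRCm38.p6), lie on the plus strand at chr11:87756903-87756925 for the 3p strand and chr11:87756867-87756887 for the 5p strand. Capitals mark the seed, bases 2 to 8 counted from the 5′ end.
mmu-miR-142a-3p: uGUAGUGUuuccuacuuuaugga
mmu-miR-142a-5p: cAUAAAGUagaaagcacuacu

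The longest annotated 3′ UTR of each gene was searched for 7-base matches to the 5p seed (ACTTTAT and CTTTATA), to the 3p seed (ACACTAC and CACTACA, here 3p.1), and to the 3p seed shifted by 1 base (AACACTA and ACACTAA, here 3p.2). Among the 9 genes only Il7r held a match. Its 1 match was CACTACA, of the 3p.1 kind, on the minus strand at chr15:9505981-9505987 (GRCm38), 2370 bases after the stop codon in a 3′ UTR of 2569 bases. It is shown in capitals within its surrounding bases, chr15:9505970-9505998, read 5′ to 3′.
Il7r 3′ UTR: catccaccattCACTACAgtgaagatctc

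No match was found in the 3′ UTRs of Il2ra (3411 bases) or Il2rb (2220 bases), the genes with the largest changes among the 8 tested. Of the 11122 tested genes with an annotated 3′ UTR, with a median length of 1185 bases, 4157 (37.4%) held at least 1 match of any kind and 1347 (12.1%) held a 3p.1 match. A match is a run of letters and was not tested as a binding site. The promoters were searched for TTCNNNGAA, the palindromic core of a STAT-type site, which reads the same on both strands. RefSeq promoters of 250 bases before to 50 bases after the start were present for 8 of the 9 genes (not Il2rb), and 1 of the 8 held it, again Il7r. The match is in capitals, at chr15:9530010-9530018 on the minus strand (GRCm38.p6), 142 bases before the start.
Il7r promoter: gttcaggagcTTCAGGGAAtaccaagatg

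The motif was present in 2726 of 32851 promoters of that length (8.3%). The 9 genes occupied 6 chromosomes, with some as neighbours. Il15ra (chr2:11705290-11734317) began 12.1 kb beyond the end of Il2ra (chr2:11642807-11693193), on the same strand. Il21r (chr7:125603429-125633570) likewise began 24.0 kb beyond Il4ra (chr7:125552120-125579474). Il2rb (chr15:78479256-78495271) and Il7r (chr15:9505788-9530176) were on the minus strand of chromosome 15. Il9r lay at chr11:32187541-32200279, Il2 at chr3:37120523-37125959 and Il2rg at chrX:101264378-101268255, all on the minus strand. An exon of Il2rg overlaps the annotated gene Gm20489 and an exon of Il4ra overlaps the antisense gene Gm44876. Reads were counted without regard to strand, so reads from such overlaps cannot be assigned with certainty.

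The libraries held between 13883069 and 24042994 counts. Mir142b, the antisense annotation over the targeted gene, had between 4.14 and 9.05 CPM (counts scaled to library size) in WT and between 0.342 and 0.389 CPM in KO libraries. Its log2 fold change was -4.07 (SE 0.39, FDR = 0.00132), and Mir142 itself had 0 counts in all 6 libraries. These values were normalised by the TMM method. The quasi-likelihood F (QLF) test of edgeR compared KO with WT over 11658 genes, with p-values adjusted by the Benjamini-Hochberg method (FDR) and a threshold of 0.05. Of these genes 2197 (18.8%) were called, 1350 (11.6%) as higher and 847 (7.27%) as lower in KO. With 3 mice against 3, an exact two-sided permutation test of 1 gene cannot give a p below 0.1.

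The 6 Treg markers (Foxp3, Ikzf2, Ctla4, Tnfrsf18, Cd4 and Cd3e) summed to between 4017 and 5159 CPM in every library. KO replicate 1 also held transcripts of other cell types. Its 8 monocyte and macrophage markers summed to 2413 CPM (Csf1r alone 639.6), against 7.33 to 68.97 in the other 5 libraries. In KO replicate 1, 7 neutrophil markers summed to 682 CPM (S100a9 the highest, 247.5), against 0.277 to 1.17 in WT. Their sum was 7.57 in KO replicate 2 and 39.6 in KO replicate 3. In KO replicate 1 the sum of 7 B cell markers was 274 CPM (highest Cd22, 82.98), against 30.1 to 41.1 in WT. In KO replicates 2 and 3 this sum was below WT, at 8.71 and 12.9 CPM. In KO replicate 1 the 5 dendritic cell markers summed to 149 CPM (highest Itgax, 126), against 2.99 to 6.71 in the other 5 libraries. The 6 CD8 and NK cell markers summed to 78.4 CPM (highest Eomes, 39.1), against 20.3 to 24.3 in WT. This sum was also raised in KO replicates 2 (55.8) and 3 (44.6). Eomes was high in all KO libraries, with 42.0 and 29.8 CPM in KO replicates 2 and 3 and 4.35 to 6.69 in WT. Klrb1c of the same list went the other way, with 0.303 to 1.39 CPM in KO and 2.38 to 3.94 in WT. The 5 mast cell markers summed to 1.11 CPM or less in every library, with Cpa3 at 0.666 CPM in KO replicate 1 and Mcpt4 and Tpsb2 at 0 in all 6. Several of these cells also express receptors of this family. The macrophage and neutrophil sums were above WT in KO replicates 2 and 3 as well, but not all markers followed. Mpo made up most of the neutrophil sums there (6.21 and 32.2 CPM), while S100a9 had 0 and 1.23 CPM. In KO replicate 3 most of the macrophage sum was Vcam1 (11.2 CPM), and Cd68 (3.08 CPM) was below WT (4.31 to 6.97). In KO replicate 2 Csf1r was raised too (12.6 CPM, at most 0.830 in WT). Leaving out KO replicate 1 thus does not remove all transcripts of these markers. The part of such transcripts in the results was not tested. Values without KO replicate 1 are given for each receptor gene tested, for the ratios between them, and for the pathway genes described here whose call changed without it.

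**Figure D1:**
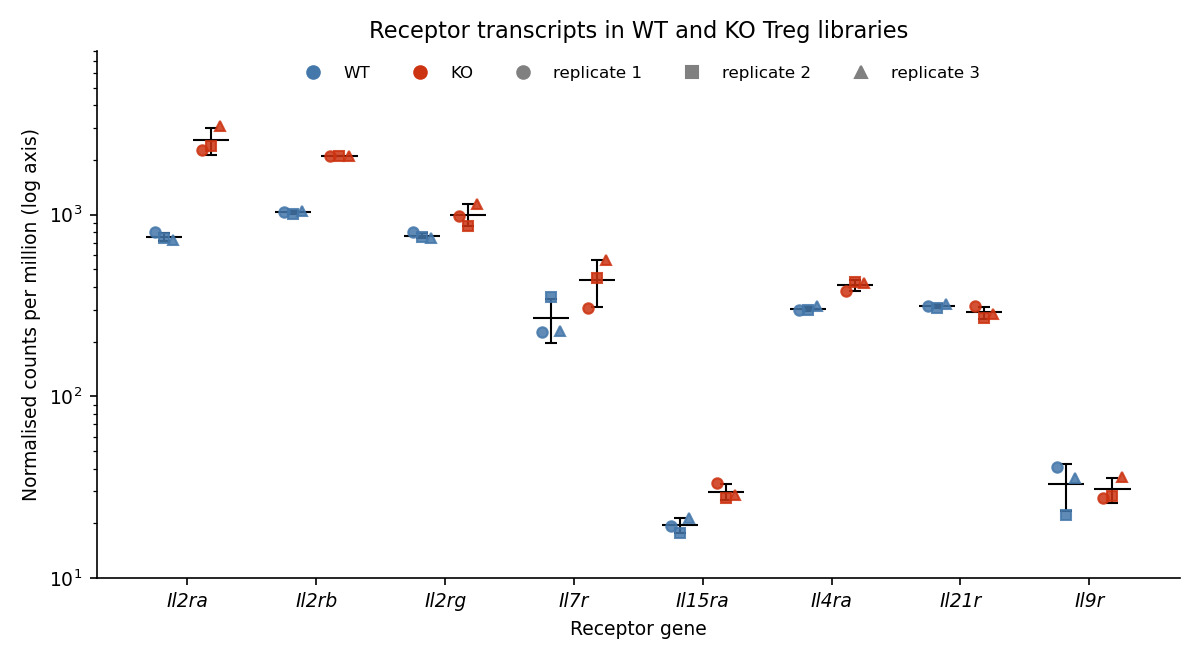
TMM-normalised CPM (log axis) of the 8 receptor genes tested, with 1 point per library, WT in blue and KO in red, the marker shape giving the replicate and the black lines the mean ± SD of 3 libraries. The KO points of Il2ra (2258 to 3073) and Il2rb (2094 to 2101) sit far above the WT points, while those of Il7r, Il21r and Il9r overlap WT.

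The alpha chain CD25 showed the largest change of the family. Il2ra had 799, 744 and 726 CPM in WT replicates 1, 2 and 3, and 2258, 2404 and 3073 CPM in KO replicates 1, 2 and 3. The KO libraries lay well above the WT libraries, and KO replicate 3 stood highest. The mean rose from 756 ± 38.0 to 2578 ± 435 CPM (SD, n = 3 per group), which is a log2 fold change of 1.77 (SE 0.14, 95% interval 1.44 to 2.10, FDR = 0.00088) or 3.41-fold. By p-value it ranked at position 42 of the 11658 genes and by log2 fold change at position 376. The call was present in each of the 6 fits that left out a library, with log2 fold changes between 1.61 and 1.84, the highest of them without KO replicate 1. A bulk library cannot tell a larger share of cells with the transcript from more transcript per cell, which holds for every gene described here.

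The beta chain CD122, shared by the IL-2 and IL-15 receptors, doubled, with very little spread in CPM. Il2rb had 1032, 1011 and 1044 CPM in the WT libraries and 2094, 2101 and 2099 CPM in the KO libraries. The mean rose from 1029 ± 16.6 to 2098 ± 3.74 CPM, a log2 fold change of 1.03 (SE 0.09, 95% interval 0.82 to 1.23, FDR = 0.000996) or 2.04-fold. The 3 KO libraries differed with a coefficient of variation of 0.178%, less than the 0.515% to 0.773% that counting alone gives at the depth of this gene in the 6 libraries. In CPM, KO replicate 1, with its transcripts of other cells, did not stand apart from KO replicates 2 and 3 in this gene. Scaled per length instead (TPM, described below), the KO values were 1998, 2113 and 2120, with KO replicate 1 the lowest. The log2 fold change was 1.01 without KO replicate 1, and the call was present in all 6 fits that left out a library (1.003 to 1.035).

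The common gamma chain, the subunit that receptors of the family share, was a different case. Il2rg had 799, 756 and 747 CPM in WT and 988, 871 and 1146 CPM in KO. Each KO library was above each WT library, but the KO libraries were spread more widely. The means were 768 ± 28.0 and 1001 ± 138 CPM, and the log2 fold change of 0.38 (SE 0.12, 95% interval 0.10 to 0.66) did not pass the test (FDR = 0.0640). The call depended on the tool and the library. DESeq2 gave 0.37 with an adjusted p of 0.0163, and the QLF test without KO replicate 2 gave 0.48 (FDR = 0.0243). Without KO replicate 1 the value was 0.38 (FDR = 0.0886).

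The 3 chains of the high-affinity IL-2 receptor did not change equally. Ratios between 2 genes within a library do not depend on the scaling between libraries, so they were compared directly. The Il2ra to Il2rb count ratio was 0.774, 0.736 and 0.695 in WT and 1.08, 1.14 and 1.46 in KO. The alpha chain thus had fewer reads than the beta chain in each WT library and more in each KO library, with a mean shift of 1.66-fold. The Il2ra to Il2rg ratio moved from 0.999, 0.984 and 0.971 to 2.29, 2.76 and 2.68, a shift of 2.61-fold. The Il2rb to Il2rg ratio moved from 1.29, 1.34 and 1.40 to 2.12, 2.41 and 1.83, a shift of 1.57-fold. In all 3 pairs the groups did not overlap. Without KO replicate 1 the KO minus WT differences of the log2 ratios were 0.82, 1.47 and 0.65, beside 0.73, 1.38 and 0.65 with it. For each the exact two-sided permutation p was 0.1, the smallest this design allows, and 0.1 after adjustment over the 5 ratios compared.

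**Figure D2:**
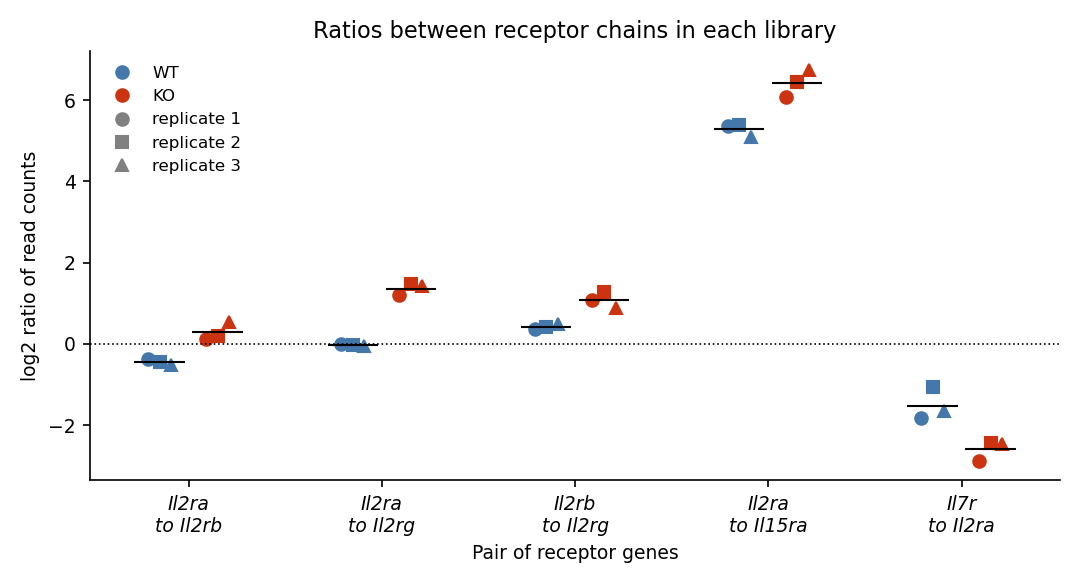
The log2 ratio of read counts for 5 pairs of receptor genes, with 1 point per library, WT in blue and KO in red, the marker shape giving the replicate and the black line the mean of 3 libraries. The groups are separate in all 5 pairs, and the Il2ra to Il2rg ratio moves from near 0 in WT to between 1.19 and 1.47 in KO.

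The alpha chain of the IL-15 receptor rose by a smaller fold than that of the IL-2 receptor next to it on chromosome 2. Il15ra, which presents IL-15 to the beta and gamma chains, had 19.3, 17.7 and 21.4 CPM in WT and 33.1, 27.5 and 28.7 CPM in KO. The KO libraries were all above the WT libraries, and KO replicate 1 was the highest. The mean rose from 19.5 ± 1.85 to 29.8 ± 2.94 CPM, a log2 fold change of 0.61 (SE 0.13, 95% interval 0.32 to 0.91, FDR = 0.0180) or 1.53-fold. The call was lost without WT replicate 1 (0.58, FDR = 0.0682) and without WT replicate 2 (0.55, FDR = 0.0906), and was present without KO replicate 1 (0.52, FDR = 0.0326). The Il2ra to Il15ra count ratio moved from 41.2, 42.1 and 33.9 in WT to 68.2, 87.3 and 107 in KO, a shift of 2.21-fold (exact permutation p = 0.1, adjusted 0.1, n = 3 per group). On the log2 scale the shift was 1.14, and 1.31 without KO replicate 1.

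The alpha chain of the IL-4 receptor, which also serves IL-13, rose slightly. Il4ra had 297, 300 and 312 CPM in WT and 378, 425 and 422 CPM in KO, with no overlap between the groups. The mean moved from 303 ± 8.02 to 409 ± 26.2 CPM, a log2 fold change of 0.43 (SE 0.09, 95% interval 0.23 to 0.63, FDR = 0.0159) or 1.35-fold. This call was lost when any WT library or KO replicate 3 was left out. The FDR was then 0.0704, 0.0836 and 0.0645 without WT replicates 1, 2 and 3, and 0.0550 without KO replicate 3. The log2 fold change lay between 0.39 and 0.45 in those fits, and was 0.47 (FDR = 0.0136) without KO replicate 1.

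The chain of the IL-7 receptor, which holds naive and memory T cells alive and is known for its low level on Treg cells, varied widely within both groups. Il7r had 225, 354 and 230 CPM in WT and 307, 446 and 561 CPM in KO. The groups overlapped, since WT replicate 2 was above KO replicate 1. The means were 270 ± 73.2 and 438 ± 127 CPM, and the log2 fold change of 0.70 (SE 0.26, 95% interval 0.10 to 1.30) did not pass the test (FDR = 0.1001). Without KO replicate 1 the value was 0.88 and passed (FDR = 0.0251), whereas without WT replicate 2 it was 0.94 and did not (FDR = 0.0829). DESeq2 gave 0.69 with an adjusted p of 0.0246. Relative to Il2ra it was lower in each KO library. The Il7r to Il2ra count ratio was 0.281, 0.476 and 0.317 in WT and 0.136, 0.186 and 0.183 in KO, which left 0.477 of the WT ratio (exact permutation p = 0.1, adjusted 0.1, n = 3 per group). On the log2 scale this difference was -1.07, and -0.92 without KO replicate 1.

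The receptors for IL-21 and IL-9 gave no call. Il21r, the chain that binds IL-21, had 314, 305 and 321 CPM in WT and 313, 271 and 285 CPM in KO. KO replicate 1 lay inside the WT range and KO replicates 2 and 3 lay below it. The log2 fold change was -0.11 (SE 0.09, 95% interval -0.32 to 0.09, FDR = 0.395), and -0.19 (FDR = 0.209) without KO replicate 1. Il9r, the chain that binds IL-9, had 40.6, 22.3 and 35.3 CPM in WT and 27.7, 28.2 and 36.1 CPM in KO. WT replicates 1 and 2 were the highest and the lowest of the 6 libraries. The log2 fold change of -0.09 (SE 0.23, 95% interval -0.63 to 0.44, FDR = 0.803) became 0.065 (FDR = 0.876) without WT replicate 1, and was -0.036 (FDR = 0.936) without KO replicate 1. Of Il21r, changes beyond 0.32 in size on the log2 scale lay outside the interval, while the interval of Il9r left room for larger ones.

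The cytokine gene Il2 was barely detected in either group. It had 3, 0 and 3 counts in WT and 1 count in each KO library, all at or under the floor of 3 counts, which corresponded to between 0.123 and 0.227 CPM. It did not pass the filter and no fold change is given.

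**Figure D3:**
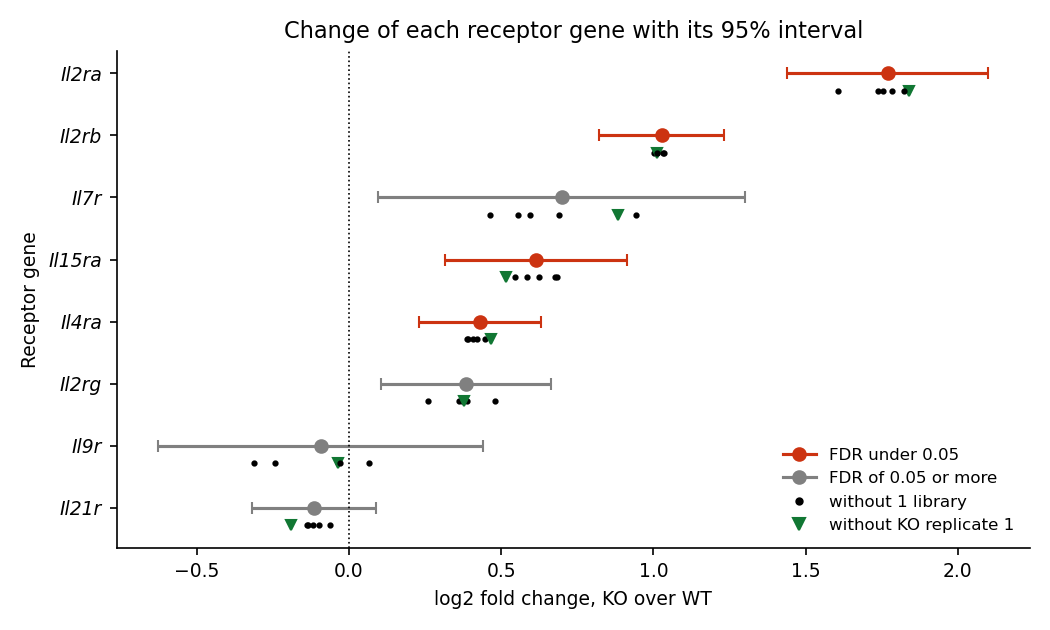
The log2 fold change (KO over WT) of the 8 receptor genes tested, with 95% intervals from the QLF fit, red where the FDR was under 0.05 and grey otherwise. Black points below each bar are fits without 1 library and the green triangle is the fit without KO replicate 1. Il2ra (1.77) and Il2rb (1.03) have intervals far from 0, and the Il9r points fall on both sides of 0.

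Over the 8 chains tested, 4 were called higher and 0 lower in the QLF test, beside 18.8% of all tested genes called in either direction and 11.6% called higher. At an unadjusted p under 0.05, 6 chains were higher and 0 lower, and DESeq2 called the same numbers. Of all 11658 genes tested, 4060 had an unadjusted p under 0.05 in either direction. DESeq2 called 2863 of them, 1665 as higher and 1198 as lower. Without WT replicate 1, and likewise without WT replicate 2, the QLF test called 2 chains. In 5 chains each KO library was above each WT library. The groups did not overlap in 41.0% of all tested genes, and 22.2% had KO above WT. The median log2 fold change of the 8 was 0.52, beside 0.016 over all tested genes. The chains named here were chosen by family, with earlier results of these data known.

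Levels between genes were compared per length, as TPM, in which counts are divided by gene length and scaled to a common total. In WT cells the common gamma chain was the most abundant, with 1483 ± 70.9 TPM, followed by Il2rb at 1106 ± 17.9 and Il2ra at 611 ± 37.8 TPM. The order went on with Il21r (434 ± 10.1 TPM), Il7r (267 ± 72.4), Il4ra (233 ± 3.65), Il9r (30.5 ± 8.92), Il15ra (20.2 ± 1.78) and Il2 (0.471 ± 0.411). The ranges over libraries overlapped between Il7r and Il4ra and between Il9r and Il15ra, and not between the other neighbours. Il2rg, Il2rb and Il2ra were at the percentiles 99.8, 99.7 and 99.2 of all genes with a length in WT. Il21r, Il7r and Il4ra were also high in that ranking, at the percentiles 98.7, 97.4 and 96.7.

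In KO cells the 3 IL-2 receptor chains had levels that overlapped. Il2rb had 2077 ± 68.4 TPM, Il2ra 1921 ± 368 and Il2rg 1781 ± 264. Il7r (401 ± 126 TPM) overlapped Il21r (369 ± 17.0), followed by Il4ra (289 ± 27.2). Il15ra (28.4 ± 1.92) overlapped Il9r (26.4 ± 4.64), and Il2 was last (0.248 ± 0.0445 TPM). The choice of gene length moved parts of this order. With the longest transcript in place of the union of exons, the KO order was Il2rg (1906 TPM), Il2ra (1860) and Il2rb (1589), and Il15ra (28.9 TPM in WT) came above Il9r (25.1).

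**Figure D4:**
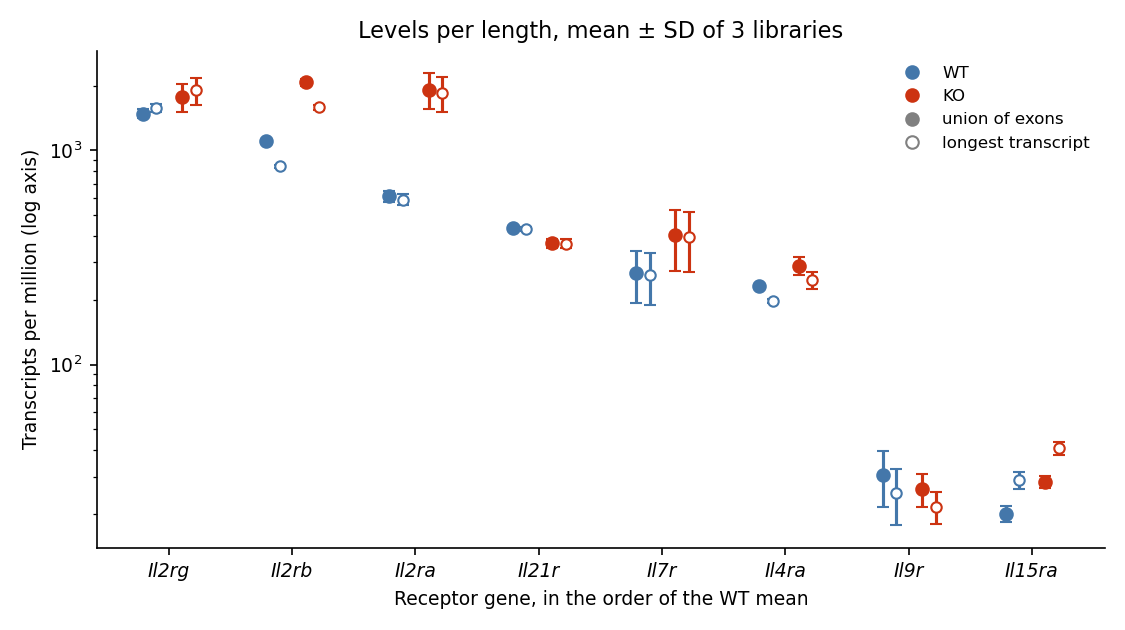
TPM (log axis) of the 8 receptor genes in WT (blue) and KO (red) cells as mean ± SD of 3 libraries, filled for the union of exons and open for the longest transcript. In WT Il2rg (1483), Il2rb (1106) and Il2ra (611) form steps, and in KO the 3 lie close together.

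Genes that followed Il2ra most closely over the 6 libraries were sought among 8740 genes with a mean of at least 10 CPM. The highest Pearson correlations of log2 CPM were with Psma2 (r = 0.9988), a proteasome subunit, Ormdl3 (0.9986), a regulator of sphingolipid synthesis, and Pik3r3 (0.9983), a regulatory subunit of phosphoinositide 3-kinase. These rose as well, by log2 fold changes of 0.75, 0.61 and 2.17. The 6 points share their 2 groups, so these correlations are given as a description only. For Il7r, which overlapped between groups, the highest were Vps51 (r = 0.9935), Fancm (0.9861) and Clpx (0.9818). Their log2 fold changes were between 0.12 and 0.16 and did not pass the test.

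Among the ligands of these receptors other than IL-2, 3 of 7 passed the filter, and 2 were called higher, beside 11.6% of all genes tested. Il4 had 1.79, 1.97 and 1.94 CPM in WT and 5.99, 4.24 and 4.65 in KO, and its log2 fold change was 1.39 (SE 0.23, FDR = 0.00833). Il7, a cytokine made mainly by stromal cells, had 0.370, 0.328 and 0.277 CPM in WT and 1.72, 1.29 and 1.03 in KO, which gave a log2 fold change of 2.04 (FDR = 0.0104). Il7 passed the filter only through the KO libraries, where it was high, so its rise is given as a description only. Levels of Il7 were near the filter, and it was not tested when any KO library was left out. Of the 3 fits without 1 WT library, its call was present in 1, the fit without WT replicate 1. Il21 had 2.09, 3.89 and 4.92 CPM in WT and 2.33, 0.454 and 0.411 in KO, where KO replicate 1 lay inside the WT range. Its log2 fold change of -1.72 did not pass (FDR = 0.112), but without KO replicate 1 it was -3.08 and passed (FDR = 0.00565). Il9 had 0 counts throughout, and Il13, Il15 and Tslp were under the filter. Of the partner chains, Crlf2 (0.32, FDR = 0.139) and Il13ra1 (0.98, FDR = 0.475) gave no call with either tool, and Il13ra2 was under the filter. Of these, Crlf2 alone had an unadjusted p under 0.05. Il13ra1 had 14.2 CPM in KO replicate 1 and at most 4.22 CPM in any other library, and without KO replicate 1 its log2 fold change was -1.04 (FDR = 0.112). That of Crlf2 was then 0.15 (FDR = 0.376).

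Of 14 signal transducers of these receptors tested, 2 were higher, 1 was lower and 11 gave no call, beside 11.6% higher and 7.27% lower among all genes tested, with a median log2 fold change of 0.016. Without KO replicate 2, 2 were higher and 3 lower. Jak1 had 1133, 1328 and 1197 CPM in WT and 931, 1277 and 1187 in KO (log2 fold change -0.11, FDR = 0.627). Jak3, which binds the gamma chain, moved from 416 ± 46.1 to 434 ± 38.0 CPM (0.06, FDR = 0.734). The groups overlapped in both kinases. Stat5a had 157 ± 9.38 CPM in WT and 205 ± 26.5 in KO (0.39, FDR = 0.0507). It was called by DESeq2 (0.38, adjusted p = 0.0143) and by the QLF test without KO replicate 1 (0.43, FDR = 0.0403). Stat5b had 393 ± 8.25 and 325 ± 56.2 CPM (-0.27, FDR = 0.176). The largest change was that of Gab2, an adaptor protein of IL-2 receptor signalling, with 0.739, 0.656 and 1.22 CPM in WT and 27.1, 12.6 and 9.51 in KO. Its log2 fold change was 4.24 (SE 0.49, FDR = 0.00255), and 3.65 without KO replicate 1, which was the highest. Of the WT libraries only replicate 3 exceeded 1 CPM, so Gab2 passed the filter only through the KO libraries, where it was high. Its rise, counted among the 2 higher genes, is therefore given as a description only. Stat3 (0.36) was also higher and Pik3r1 (-0.35) lower, with FDR values of 0.0252 and 0.0334. Neither was called without KO replicate 1, and each was called in 1 of the 6 fits without 1 library.

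Several inhibitors of cytokine signalling were higher in KO cells, including Cish and Socs2, which STAT5 is known to induce. Of 12 inhibitors tested, 5 were called higher and 1 lower, beside 11.6% higher and 7.27% lower among all genes tested, with a median log2 fold change of 0.23. Socs2 had 35.8, 38.2 and 42.8 CPM in WT and 219, 267 and 189 CPM in KO, which gave a log2 fold change of 2.53 (SE 0.15, FDR = 0.000393). Cish, which binds the beta chain tail, had 240, 194 and 271 CPM in WT and 463, 499 and 451 CPM in KO, which gave a log2 fold change of 1.002 (SE 0.13, FDR = 0.00394). Socs3, better known as an inhibitor of gp130 receptors, moved from 202 ± 6.95 to 425 ± 27.3 CPM (1.07, FDR = 0.00088). In these 3 genes the groups did not overlap, and all were called in each fit without 1 library. Socs1, the inhibitor of Janus kinases, had 78.1, 60.1 and 61.5 CPM in WT and 112, 79.8 and 101 CPM in KO (0.55, FDR = 0.0486). This call was present in 1 of the 6 fits that left out a library, and the FDR was 0.0871 without KO replicate 1. Ptpn1 (0.69) was also higher, and was called in all 6 of those fits. Cbl (-0.50, FDR = 0.0275), a ubiquitin ligase, was lower, and was called in 3 of the 6 fits, the fit without KO replicate 1 included.

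Among 14 genes known as targets of IL-2 and STAT5, 5 were higher, 0 were lower and 9 gave no call, beside 11.6% higher and 7.27% lower among all genes tested, with a median log2 fold change of 0.33. Without WT replicate 1, 3 were higher, and without WT replicate 2 or WT replicate 3, 1 was. Bcl2, the survival factor, had 456, 515 and 456 CPM in WT and 353, 779 and 513 CPM in KO (0.20, FDR = 0.617). KO replicates 1 and 2 were the lowest and the highest of the 6 libraries for it, and without KO replicate 1 the log2 fold change was 0.42 (FDR = 0.128). Gzmb, which encodes the cytotoxic protease granzyme B, had 4.87, 6.97 and 6.36 CPM in WT and 120, 28.3 and 46.2 CPM in KO. Its log2 fold change of 3.42 (SE 0.54, FDR = 0.00691) was 2.59 without KO replicate 1. Prdm1, the gene of the transcription factor Blimp1, had 43.0, 62.6 and 44.2 CPM in WT and 155, 80.1 and 92.6 CPM in KO (1.13, FDR = 0.0280), with 0.77 without KO replicate 1. It was called in 3 of the 6 fits without 1 library, the fit without KO replicate 1 included. At an unadjusted p under 0.05 the QLF test had 8 higher and 0 lower genes in this list, and DESeq2 called 7 higher and 0 lower. Of all 11658 genes tested, 4060 had such a p in either direction, and DESeq2 called 1665 higher and 1198 lower. The other called genes were Bcl2l1 (0.64), Osm (0.86) and Ccnd3 (0.37), called in 4, 4 and 2 of the 6 fits without 1 library and all called without KO replicate 1.

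Of 8 genes of resting Treg cells 1 was higher, Satb1 (0.74, FDR = 0.0303, called in 3 of the 6 fits), 0 were lower and the median log2 fold change was -0.21. At an unadjusted p under 0.05, Foxo1 and Tcf7 were the 2 lower genes, and DESeq2 called 1, Tcf7 (-0.85, adjusted p = 0.00415). Of all 11658 genes tested, 4060 had such a p in either direction, and DESeq2 called 1665 higher and 1198 lower. Without KO replicate 2 the QLF test called 5 of the 8 lower, beside 937 of 11447 genes tested. Of 10 genes of effector Treg cells 4 were higher and 0 lower in the QLF test, also at an unadjusted p under 0.05 and with DESeq2, beside 11.6% higher and 7.27% lower among all genes tested, with a median of 0.24. Without KO replicate 1, Cd44 was called lower (-0.72, FDR = 0.00310). The robust fit, the fit with a block on replicate number and each fit without 1 WT library called 3 of the 10 higher. Klrg1, a receptor of terminally differentiated cells, moved from 48.4 ± 9.78 to 271 ± 65.0 CPM (2.49, FDR = 0.00110). Itgae, the integrin chain CD103, moved from 121 ± 16.3 to 544 ± 60.0 CPM (2.18, FDR = 0.000508). Il1rl1, the IL-33 receptor, had 90.1, 82.4 and 61.1 CPM in WT and 139, 167 and 394 CPM in KO (1.58, FDR = 0.0322). KO replicate 3 stood far above the other KO libraries in it, and it was called in 3 of the 6 fits without 1 library. Tnfrsf9 (0.99) was also higher. Klrg1, Itgae and Tnfrsf9 were called in each fit without 1 library. Over all lists 63 of 68 genes were tested, 19 were higher and 2 were lower, with a median log2 fold change of 0.19. The 19 include Il7 and Gab2, which passed the filter only through the KO libraries. Over all tested genes 11.6% were higher and 7.27% lower, with a median of 0.016. Without WT replicate 1, 13 were higher and 1 lower, and without WT replicate 2 or WT replicate 3, 10 were higher and 0 lower. Leaving out KO replicates 1, 2 and 3 in turn gave 18, 18 and 15 higher genes, and 3, 9 and 0 lower genes.

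**Figure D5:**
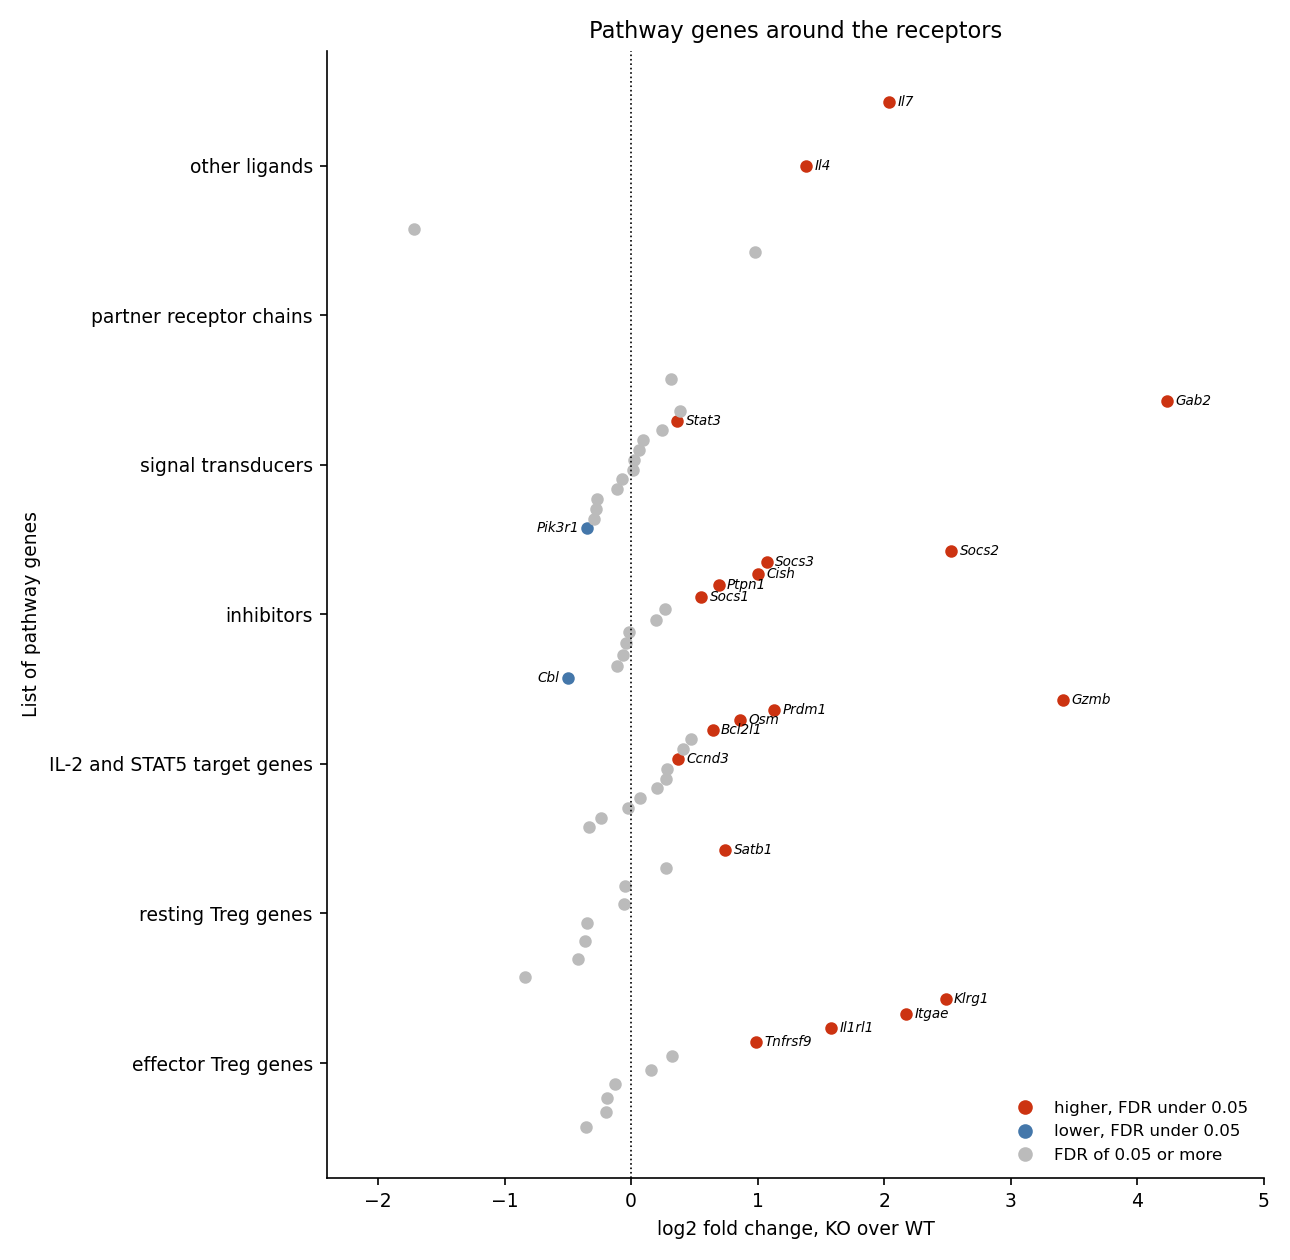
The log2 fold change (KO over WT) of the 63 tested genes of 7 lists around the receptors, with 1 point per gene, red where higher and blue where lower at an FDR under 0.05, and grey otherwise. Named points are the 19 higher and 2 lower genes, and the vertical spread within a list only separates the points.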

How the data were processed

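Treg cells were sorted as CD4+YFP+ from spleen, and 1 library was made per mouse. The study's methods give HISAT as aligner, mm10 as genome and unstranded counting by featureCounts. The authors deposited a matrix of raw counts, not normalized, for 24421 genes. Versions of these tools are not given in the sources used here.

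The QLF test in edgeR 4.0.16 (R 4.3.3) was run on genes that exceeded 1 CPM in 3 or more libraries (TMM normalization, library sizes recomputed after the filter, FDR threshold 0.05). DESeq2 1.42.0 was an alternative, and others covered normalization, filter, thresholds, a block on replicate number and leaving out each library. TPM used exon lengths from GENCODE vM21 (GRCm38), with 23376 genes matched by symbol, 679 by synonym and 366 not matched. Exact permutation tests used log2 of CPM plus 0.5, and ratios used the same pseudocount. The QLF fit was tested on simulated counts. Protein sequences were not used here, and a result for a list gene is not reported.

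The receptor genes and all lists were chosen with earlier results of these data known. Pathway genes are named if they are Jak1, Jak3, Stat5a, Stat5b, Cish, Socs1, Socs2 or Bcl2, or if called with a log2 fold change of at least 1 in size, up to 4 per list. Genes like Il2ra and Il7r are the 3 with the highest r, and each marker list is named by its highest gene in KO replicate 1. The remaining called list genes, and list genes without a call given with a value, were named after their values were seen. Libraries came from separate mice. At a depth of 13883069 counts or more, the floor of 3 counts was 0.227 CPM or less, for counting error only.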

Additional observations from a re-analysis of the deposited data

How the results depend on the processing

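Il2ra and Il2rb were called with the same direction under every alternative run. Il15ra and Il4ra were called under both other normalizations, DESeq2, both other filters and the robust fit, and not at an FDR threshold of 0.01. DESeq2 called Il2rg (0.37) and Il7r (0.69) as well, and so 6 receptor genes. An FDR threshold of 0.01 left 686 genes, 2 receptor genes and 10 list genes. Over the 6 fits that left out 1 library, the genes called ranged from 691 to 2340, the receptor genes from 2 to 5 and the list genes from 10 to 27. In those fits the log2 fold change lay between 0.52 and 0.68 for Il15ra, 0.39 and 0.47 for Il4ra, 0.46 and 0.94 for Il7r, 0.26 and 0.48 for Il2rg, and -0.31 and 0.065 for Il9r, where the positive value (0.065) came without WT replicate 1. Without WT replicates 1, 2 and 3 the genes called were 1022, 691 and 790. Causes were not tested.

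Deviations from the group means correlated at 0.0804, -0.0056 and -0.195 between same-numbered libraries, and between -0.183 and 0.207 for other numbers. The labels do not say whether replicate numbers pair the samples, and these values cannot decide it. The fit with a replicate block called 1606 genes, 4 receptor genes and 19 list genes, with 1.76 for Il2ra, and changed no call of a receptor gene. Scaling by library size alone moved the median log2 fold change from 0.016 to -0.061. With 3 mice per group, intervals as wide as that of Il7r leave sizeable changes undetermined, and Il2 lay under the depth needed for a comparison.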
